A study of Mus musculus with 9 samples.

Results

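Lining fibroblasts, or fibroblast-like synoviocytes (FLS), were compared between injured and uninjured mouse knees in the *Gdf5* lineage. A cell counted as a lining fibroblast when its barcode held at least 20 UMIs (unique molecular identifiers, each standing for 1 captured transcript) of *Prg4* per 10000, at least 2 UMIs of *Clic5* and *Tspan15* together, and none of *Thy1* or *Ptprc*. Barcodes first had to hold at least 500 genes and 1000 UMIs, with at most 10% of UMIs from mitochondrial genes. The cells were thus chosen by their UMIs of *Prg4*, *Clic5*, *Tspan15*, *Thy1* and *Ptprc*, and the gate left 590 lining fibroblasts of 3598 kept Tom+ cells, in a series that holds 4788 kept cells in 9 libraries. All mice carried *Gdf5-Cre;Tom;Pdgfrα-H2BGFP*. *Gdf5-Cre* is active in the embryonic joint interzone, so that tdTomato (Tom) marks the progeny of those cells rather than cells that express *Gdf5* in the adult, and Tom+ cells were sorted live from collagenase-digested knees. The steady-state group held 2 Tom+ libraries from uninjured mice, with 20 and 31 lining fibroblasts. The injured group held 4 Tom+ libraries, with 101, 180, 145 and 113, taken at day 6 after an arthrotomy in which the cartilage of the right knee was scratched through its full thickness. The labels give an age of 11 to 12 weeks for both groups, but the figure legends of the source describe 11-week-old mice for the steady state and 12-week-old mice for the injury, so age and state cannot be told apart. No group was opened surgically without the scratch, so responses to the scratch and to the opening of the joint cannot be told apart.

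The synovial lining is the thin cell layer that faces the joint cavity. Its fibroblasts secrete lubricin (*Prg4*) and hyaluronan into the synovial fluid and, with lining macrophages, form a barrier over the looser sublining, whose fibroblasts carry *Thy1*. After joint damage the lining thickens, and its fibroblasts are a known source of matrix, proteases and chemokines. Hyaluronan is built at the cell surface from UDP sugars by the *Has* enzymes and is held in the fluid and matrix by binding proteins.

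All 10 lining markers had UMIs in both groups. The 3 genes of the gate are given as values only, since they chose the cells. *Prg4* stood at 44312 and 23878 CPM (counts of UMIs relative to the size and composition of a library) in the steady-state libraries and at 39170, 49114, 44884 and 43918 in the injured ones. *Clic5* stood at 1235 and 699 CPM against 506, 758, 755 and 802, and *Tspan15* at 633 and 513 CPM against 299, 392, 405 and 415. Few cells lay near the gate's edges for *Prg4* and *Thy1*, but more did for *Clic5* and *Tspan15*. In the steady state 2 of 20 and 5 of 31 lining fibroblasts had under 4 UMIs of these 2 genes, and 4 and 6 cells lay just outside at 1 UMI. Between 0 and 4 lining fibroblasts per library had under 50 *Prg4* UMIs per 10000, and 2 to 23 had under 4 UMIs of *Clic5* and *Tspan15* together. Just outside, 0 to 2 cells per library had *Prg4* between 10 and 20 per 10000, 4 to 29 had 1 UMI of *Clic5* or *Tspan15*, and 0 to 7 had 1 UMI of *Thy1*. The reporter *tdTom* had UMIs in 97.8% to 100% of the lining fibroblasts of each library.

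Several facts of the libraries bear on what follows. Median depth was 14282 and 14390 UMIs per lining fibroblast in the steady state and 15817 to 18553 after injury, and the summed UMIs were 288902 and 456967 against 1872008 to 2797017. No lining barcode was shared between libraries. Both steady-state libraries and injured replicate 1 came with an older form of gene list, and injured replicates 2 to 4 with a newer one, so state and list format can be separated only through injured replicate 1. Markers of other cells were not equal between the groups, and not all were low. Summed over the list, in CPM of all lining UMIs, 17 macrophage markers stood at 3.46 and 10.9 against 19.2 to 70.7, mostly *Cd14* and *Lyz2*, with *Cd163* and *Cx3cr1* at 0 in all libraries. The 9 endothelial markers stood at 0 to 4.38 against 0.534 to 6.40 (*Cdh5*, *Kdr*, *Tie1* and *Cldn5* at 0), and the 10 neutrophil markers at 0 to 10.4 against 1.07 to 15.0, with 5 at 0. The 7 tenocyte markers summed to 381 and 1773 CPM against 29.9 to 183, mainly *Thbs4*, with *Chodl* at 0 and *Tnmd* between 0 and 2.19. In injured replicate 1 *Fmod*, at 102, was the largest of them. The 9 mural markers summed to 633 and 1455 against 241 to 366, mainly *Tagln*, *Rgs5*, *Des* and *Cspg4*, with *Kcnj8* at 0. Of these *Cspg4* overlapped between the groups, at 79.6 and 96.3 against 53.8 to 107. The 6 Schwann markers summed to 182 and 232 against 34.6 to 106, almost wholly *S100b*, with *Sox10* at 0. The 15 chondrocyte markers summed to 31.2 and 418 against 58.7 to 168 and overlapped between the groups. Steady-state replicate 2 lay highest, with *Comp* at 282 and *Sox9* at 70.0. Higher sums were found for the 17 *Thy1*+ sublining markers, at 6154 and 4718 against 6271 to 7912, mainly *Ly6a* and *Ly6c1*. Each of these genes overlapped between the groups. *Cd248* (588 and 573 against 262 to 366) and *Mfap5* (256 and 381 against 25.7 to 140) were lower in all 4 injured libraries. *Cxcl12* (111 and 26.3 against 145 to 437) and the sparse *Dkk2* were higher in all 4. The 11 osteoblast markers summed to 1571 and 2120.5 against 2265 to 2998, mainly *Col1a1*, with *Dmp1*, *Ifitm5* and *Phex* at 0. The sublining and osteoblast sums were both higher in all 4 injured libraries. The osteoblast marker *Alpl* stood at 0 and 105 against 0 in each injured library.

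Lining fibroblasts made up a larger share of the kept Tom+ cells in every injured library. They were 20 of 331 cells (6.04%, exact 95% binomial interval 3.73 to 9.18%) and 31 of 544 (5.70%, 3.90 to 7.99%) in the steady state. After injury they were 101 of 759 (13.3%, 11.0 to 15.9%), 180 of 826 (21.8%, 19.0 to 24.8%), 145 of 518 (28.0%, 24.2 to 32.1%) and 113 of 620 (18.2%, 15.3 to 21.5%). All 4 injured libraries lay above both steady-state libraries. The means were 5.87% ± 0.243 (SD, n = 2) and 20.3% ± 6.18 (SD, n = 4), a difference of 14.5 percentage points with p = 0.0667 in a two-sided exact permutation test. This is the smallest p that 2 against 4 libraries allow, so the design cannot reach 0.05 here. The intervals cover counting error only.

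**Figure D1:**
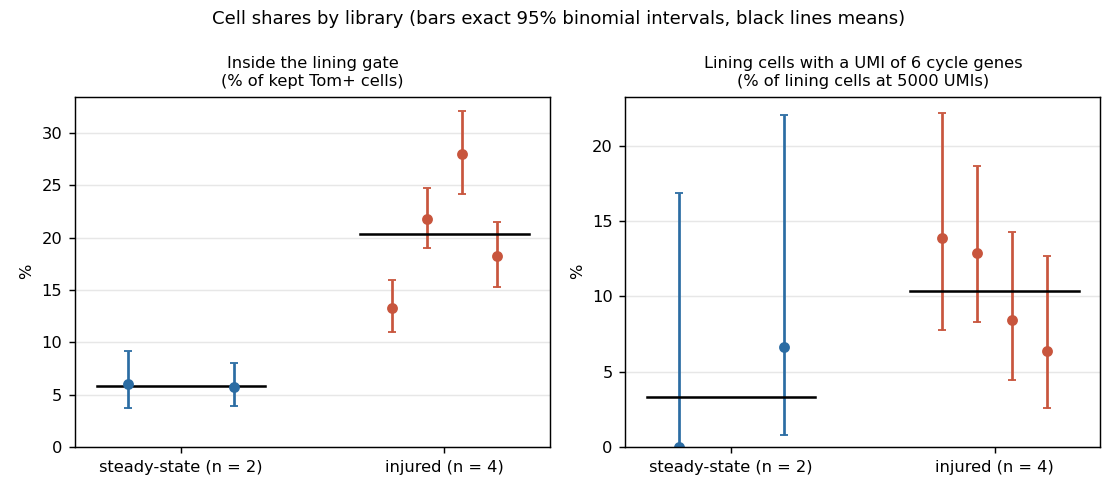
Share of kept Tom+ cells inside the lining gate (left) and share of lining fibroblasts with cycle UMIs at 5000 UMIs per cell (right), in percent, with 1 point per library, exact 95% binomial intervals and black lines at group means. The cycle share is for a UMI of any of 6 genes. The gate share was 5.70 to 6.04% in the steady state and 13.3 to 28.0% after injury.

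For expression, UMIs were summed over the lining fibroblasts of each library, so that n counts libraries. Of 9675 genes tested, 125 (1.29%) changed past an adjusted p of 0.05 (quasi-likelihood test of edgeR, Benjamini-Hochberg), 44 of them higher (0.455% of genes tested) and 81 lower (0.837%) after injury. An unadjusted p under 0.05 was found for 1668 genes (17.2%). Without overlap between the groups, 17.6% of all genes tested were higher and 15.9% lower in all 4 injured libraries. With library totals that carry no composition factors, 33 of 135 calls were higher and 102 lower. Libraries are taken as separate mice, which the methods give in the same number. Counts for gene lists below cover the members with enough UMIs to be tested. A gene high in 1 group alone could enter that way, so these counts and medians are descriptions. Below, genes that rose, fell or were called did so by edgeR. DESeq2 is named where its calls are given, and not all of its calls are given. The call rests on few cells in the steady state. With steady-state replicate 1 left out 23 genes were called, 17 of them among the 125, and with steady-state replicate 2 left out 23 were called, 18 of them among the 125. Called in all 6 fits that each left out 1 library were *Tnfaip6*, *Wisp2* and *Nt5dc2*, which rose, and *S100a4*, *Pcolce2*, *Gsn* and *Thbs4*, which fell. All 125 kept their direction with a term for the gene list format, and 19 of them were also called there.

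The promoters of 3 genes are shown, of which *Tnfaip6* and *Cxcl1* were among the strongest rises and *Socs3* among the strongest falls described here. Each run is the 250 bases before the RefSeq start on the gene's own strand (GRCm38.p6), with matches to a searched motif in capitals.
Tnfaip6, chr2:52037863-52038112, plus strand: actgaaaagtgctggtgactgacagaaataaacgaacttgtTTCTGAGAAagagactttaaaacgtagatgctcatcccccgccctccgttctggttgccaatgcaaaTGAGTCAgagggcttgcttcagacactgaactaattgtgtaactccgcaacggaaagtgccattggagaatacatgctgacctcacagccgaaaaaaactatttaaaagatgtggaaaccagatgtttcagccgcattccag
Cxcl1, chr5:90890995-90891244, plus strand: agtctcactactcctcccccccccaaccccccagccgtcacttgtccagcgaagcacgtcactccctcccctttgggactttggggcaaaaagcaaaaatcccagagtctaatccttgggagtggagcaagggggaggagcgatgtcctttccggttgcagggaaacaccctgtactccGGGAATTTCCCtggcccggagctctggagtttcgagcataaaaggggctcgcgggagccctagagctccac
Socs3, chr11:117969367-117969616, minus strand: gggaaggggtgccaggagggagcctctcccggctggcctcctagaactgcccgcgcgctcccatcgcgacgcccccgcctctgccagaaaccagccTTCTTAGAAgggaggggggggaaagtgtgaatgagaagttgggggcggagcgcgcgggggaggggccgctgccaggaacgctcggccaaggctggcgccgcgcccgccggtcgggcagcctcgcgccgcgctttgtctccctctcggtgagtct
The capitals mark a STAT motif (TTCNNNGAA) and an AP-1 motif (TGANTCA) in *Tnfaip6*, overlapping matches to an NF-κB motif in *Cxcl1*, and a STAT motif in *Socs3*. Other called genes held matches in the same search too. The promoter of *Ccl9* matched AP-1, NF-κB and TATAAA, and that of *Mef2c* matched AP-1, STAT and TATAAA. The promoters of *Slpi*, *Gsn*, *Jun*, *Jund* and *Cnn3* held no searched motif, and that of *S100a4* held only TATAAA.

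Among hyaluronan genes the strongest rise was that of *Tnfaip6*. It encodes TSG-6, a secreted protein that transfers heavy chains onto hyaluronan and is induced in inflamed joints. Its level stood at 0 and 4.28 CPM in the steady state and at 1002, 1419, 793 and 632 CPM after injury. No injured library came near the steady-state level. Only 2 UMIs were counted in the steady state against 8908 after injury, a pooled ratio of 379 with a counting interval from 105 to 3134 (adjusted p = 0.000163, edgeR). With every cell thinned to 5000 UMIs, *Tnfaip6* was detected in 0 of 20 and 1 of 30 lining fibroblasts in the steady state, where 0 of 20 allows a share of up to 15.0% at 3 counts of the total. After injury it was detected in 60 of 101, 144 of 179, 92 of 142 and 73 of 110. Cells with a *Ptprc* UMI, a leukocyte marker, had it in 4 of 46 in the injured libraries at the same depth.

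Of the 15 genes of hyaluronan synthesis, breakdown and binding that were tested, edgeR called 2 higher and none lower, with a median log2 fold change of 0.70 against 0.0018 over all genes. The second was *Ugp2*, which makes UDP-glucose, a precursor of a hyaluronan sugar. It stood at 579 and 612 CPM in the steady state and at 1130, 1104, 1010 and 919 after injury (log2 fold change 0.80, SE 0.17, adjusted p = 0.0466). *Uap1*, outside the list, makes the UDP-N-acetylglucosamine that forms the other sugar. It stood at 352 and 421 CPM against 803, 1188, 997 and 844, without overlap (log2 fold change 1.30, SE 0.21, adjusted p = 0.0166). The hyaluronan synthase *Has1* stood at 572 and 453 CPM against 537, 1034, 1082 and 564 and did not pass (log2 fold change 0.66, adjusted p = 0.302). The receptor *Cd44* stood at 193 and 282 against 397, 363, 269 and 228 CPM (adjusted p = 0.480). DESeq2 also called the hyaluronan-binding gene *Habp4*, which stood at 40.6 and 49.2 against 18.7, 20.5, 12.2 and 13.8 CPM (log2 fold change -1.47, adjusted p = 0.0554 by edgeR and 0.0331 by DESeq2). *Ugp2* and *Uap1* lost the call without either steady-state library, at adjusted p up to 0.233 and 0.160.

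**Figure D2:**
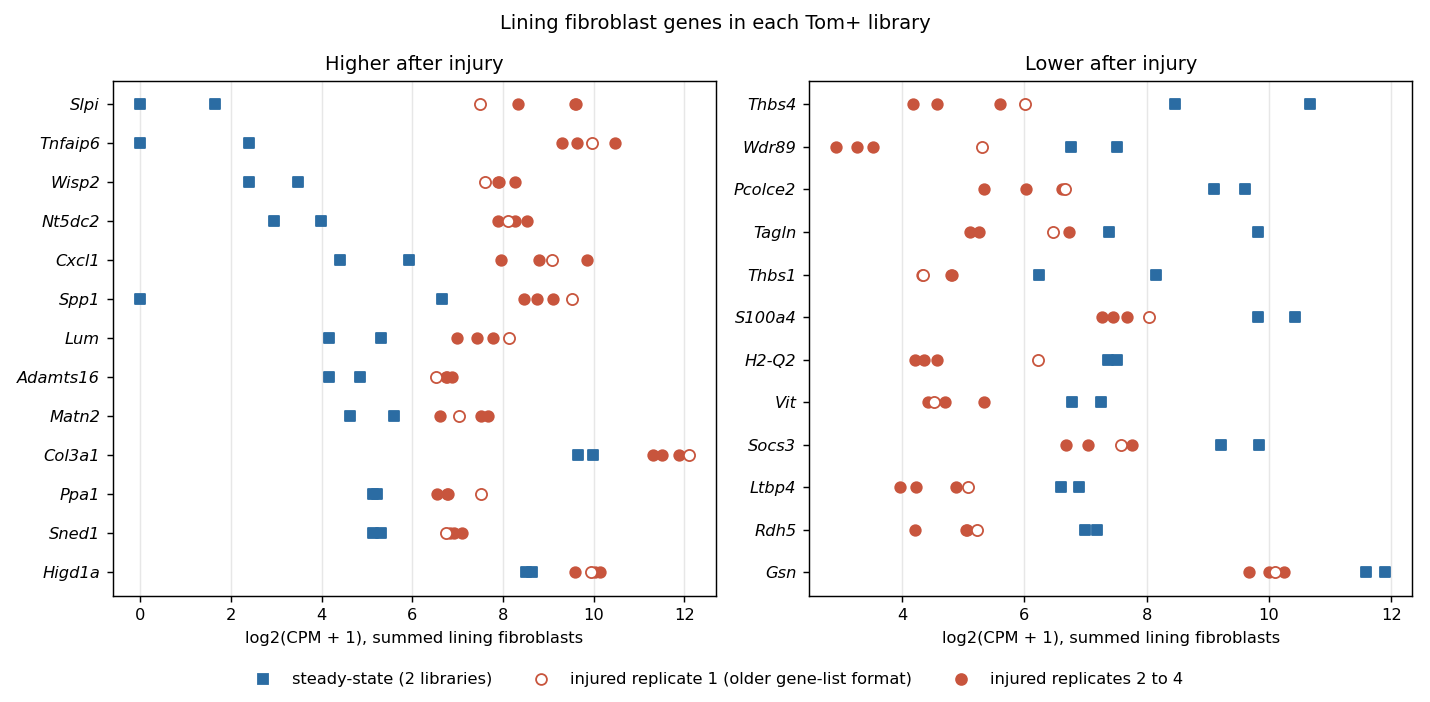
Levels of called genes in each library of lining fibroblasts, as log2(CPM + 1), with 1 point per library. Blue squares are steady state (n = 2), red circles injured (n = 4), the open one injured replicate 1. *Tnfaip6* lay at 0 and 4.28 CPM in the steady state and between 632 and 1419 CPM after injury, whereas *S100a4* lay at 907 and 1373 against 153 to 262 CPM.

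Among other genes that characterise the lining, edgeR called 1 of 15 tested, the EGF receptor ligand *Hbegf*, and DESeq2 called *Itga6* and *F13a1* as well. It stood at 859 and 1125 CPM in the steady state and at 1663, 2843, 2817 and 2498 after injury, without overlap (log2 fold change 1.30, SE 0.25, adjusted p = 0.0310). The laminin receptor chain *Itga6*, which marks FLS, was lower in all 4 injured libraries, at 103, 98.3, 111 and 139 CPM against 223 and 188, but did not pass (log2 fold change -0.86, adjusted p = 0.0585). The protease *Htra4* stood at 1049 and 1484 against 1437, 1215, 1863 and 1911 CPM (adjusted p = 0.485), and the complement regulator *Cd55* at 250 and 222 against 297, 324, 340 and 207 CPM (adjusted p = 0.520). Neither differed beyond its spread. *F13a1*, a coagulation factor XIII chain, stood at 707 and 783 against 1185, 1715, 1275 and 1223 CPM (adjusted p = 0.0620 by edgeR and 0.00784 by DESeq2). Among 8 tested genes of EGF signalling, edgeR called *Hbegf* and DESeq2 *Hbegf* and *Ereg*. Its relative *Ereg* stood at 6.77 and 8.55 CPM against 41.2, 92.8, 79.4 and 35.8 (adjusted p = 0.0583), and the receptor *Egfr* at 227 and 186 against 122, 142, 141 and 150 (adjusted p = 0.143). *Hbegf* was not called without injured replicate 2 or 3 or without either steady-state library, at adjusted p up to 0.221.

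Collagen III rose while collagen I did not pass. *Col3a1*, which forms thin fibrils in loose and healing tissue, stood at 798 and 1007 CPM in the steady state and at 4376, 3751, 2925 and 2550 after injury. The injured libraries were 3.77 times higher in the mean (log2 fold change 1.91, SE 0.25, adjusted p = 0.00655). *Col5a3*, a chain of collagen V, which sets fibril diameter, stood at 105 and 126 against 284, 302, 267 and 194 CPM (log2 fold change 1.17, adjusted p = 0.0378). *Col1a1* stood at 934 and 1373 against 1832, 1954, 1538 and 1748 CPM, all 4 above both, and missed the threshold (log2 fold change 0.61, SE 0.20, adjusted p = 0.155). Of 9 fibrillar collagens tested edgeR called 2 higher and none lower, and the median log2 fold change was 0.61. Of the 9, 4 were higher without overlap (44.4%, against 17.6% of all genes). DESeq2 called *Col5a2* and *Col27a1* as well. *Col5a2* stood at 115 and 293 against 909, 759, 447 and 508 CPM (adjusted p = 0.0613), and *Col27a1* at 6.77 and 77.0 against 12.3, 8.80, 9.43 and 16.5 CPM with overlap (log2 fold change -2.01, adjusted p = 0.114). Without either steady-state library *Col3a1* and *Col5a3* lost the call, at adjusted p up to 0.0974 and 0.221.

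In collagen processing and cross-linking, 1 of 26 genes rose and 1 fell, and the median log2 fold change was 0.22. Without overlap 10 were higher (38.5%, against 17.6% of all genes) and 2 lower (7.69%, against 15.9%). *Plod2*, the lysyl hydroxylase that modifies collagen telopeptides for stable cross-links, stood at 139 and 98.4 against 310, 346, 239 and 219 CPM (log2 fold change 1.26, adjusted p = 0.0430). *Pcolce2*, an enhancer of procollagen C-proteinase, went the other way. It stood at 775 and 548 CPM in the steady state and at 101, 63.8, 39.7 and 96.9 after injury with a wide gap between the groups (log2 fold change -3.14, SE 0.31, adjusted p = 0.00111). Its call held in all 6 fits that left out a library, with log2 fold changes from -3.35 to -2.86. The cross-linking enzyme *Lox* stood at 3.38 and 23.5 against 87.7, 77.0, 42.9 and 73.3 CPM and did not pass by edgeR (log2 fold change 2.18, adjusted p = 0.0672). DESeq2 called *Lox* and also *Pcolce*, at a log2 fold change of 0.81 for the latter. *Ppic*, a prolyl isomerase of the secretory pathway, rose from 250 and 372 to 628, 693, 789 and 822 CPM (adjusted p = 0.0213). *Plod2* and *Ppic* lost the call without either steady-state library, at adjusted p up to 0.288 and 0.179.

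**Figure D3:**
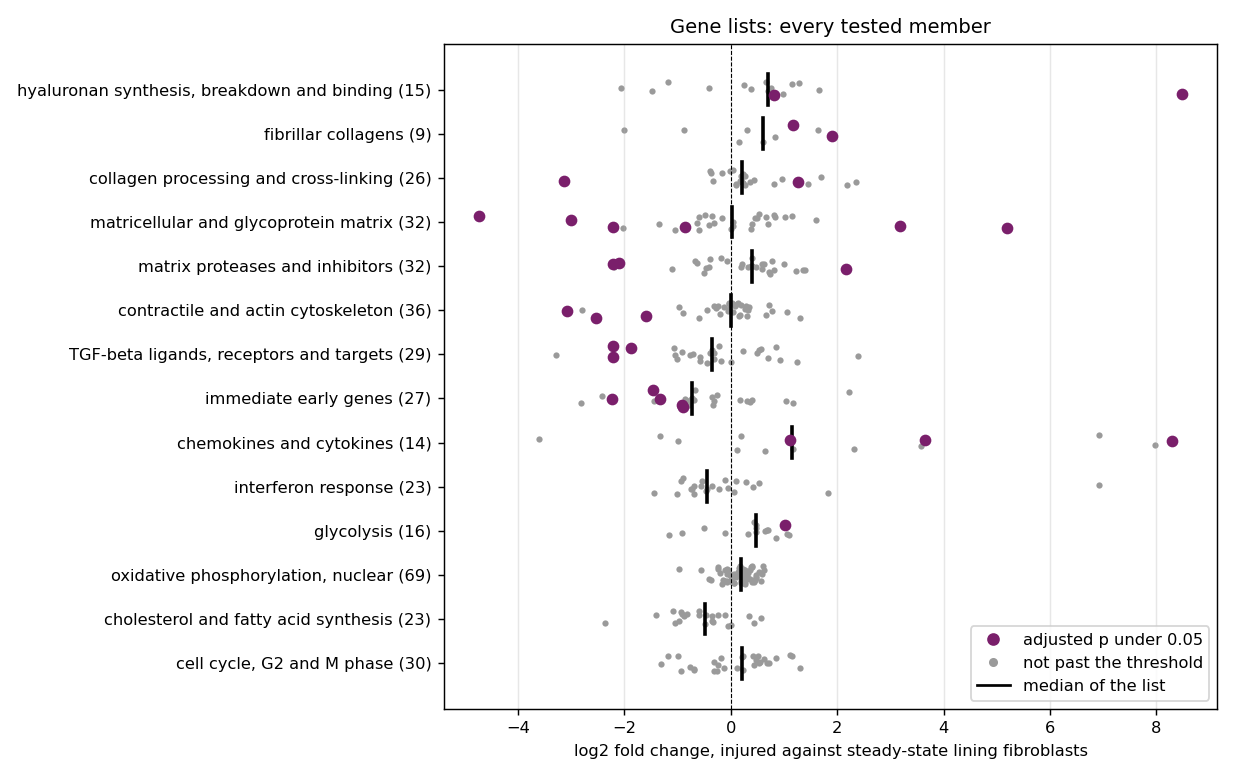
Log2 fold change, injured minus steady state, for the tested members of 14 gene lists in lining fibroblasts, with large points for called genes, small points for the others and a black bar at the list median. The immediate early list lay at a median of -0.73 and the chemokine and cytokine list at 1.15, against 0.0018 for all genes tested.

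The matricellular proteins, which sit in the matrix and act on cells, split. Of 32 tested, 2 rose and 4 fell, and the median log2 fold change was 0.014. Without overlap 6 were higher (18.8%, near the 17.6% of all genes) and 9 lower (28.1%, against 15.9% of all genes). Further members called by DESeq2 alone were *Sparcl1*, *Fbln5* and *Thbs2*. *Wisp2* (CCN5), a secreted CCN protein, stood at 10.2 and 4.28 CPM in the steady state and at 195, 235, 238 and 308 after injury. It was 33.8 times higher in the mean (log2 fold change 5.19, SE 0.40, adjusted p = 0.000163), on 5 UMIs in the steady state against 2171. It was detected in 32.7 to 59.1% of injured lining fibroblasts per library at 5000 UMIs, in 1 of 20 and 0 of 30 in the steady state, and in 1 of 46 injured cells with a *Ptprc* UMI. *Spp1* (osteopontin), an integrin ligand, stood at 0 and 101 CPM against 731, 548, 432 and 354 (log2 fold change 3.18, SE 0.64, adjusted p = 0.0405). It was detected in 69.6% of injured cells with a *Ptprc* UMI and in 23.7% of injured lining fibroblasts, and the macrophage markers given above were higher after injury too. Their part in the *Spp1* level was not tested. Without steady-state replicate 1 or injured replicate 2 or 3, *Spp1* was not called, at adjusted p up to 0.0874. DESeq2 did not call *Spp1*.

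The 4 matricellular genes that fell were *Thbs4*, *Thbs1*, *Efemp1* and *Fbln7*. *Thbs4*, a thrombospondin of tendon and other connective tissue, stood at 352 and 1628 CPM against 63.6, 47.3, 22.8 and 17.1 (log2 fold change -4.73, SE 0.55, adjusted p = 0.00388). A single cell held 385 of its 761 UMIs in steady-state replicate 2 and another 72 of 104 in replicate 1, and it is itself one of the tenocyte markers, whose sum fell alongside. *Thbs1*, which activates latent TGF-β, stood at 74.4 and 282 against 19.3, 19.1, 27.1 and 27.0 CPM (log2 fold change -3.00, SE 0.38, adjusted p = 0.00622). Of its 22 UMIs in replicate 1, 20 came from 1 cell, and without the top cell of each library its groups overlapped. *Efemp1* (fibulin-3) stood at 88.0 and 44.9 against 8.02, 11.7, 13.4 and 22.0 CPM, and *Fbln7* (fibulin-7) at 467 and 558 against 234, 258, 317 and 325. *Thbs1* was not called without steady-state replicate 2 (adjusted p up to 0.125), whereas *Efemp1* and *Fbln7* were not called without either steady-state library, at adjusted p up to 0.246 and 0.309.

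The study named 7 matrix genes, among others, as upregulated after injury within its fibroblast clusters, so they were chosen with these samples in view. In the lining fibroblasts here, 3 of the 7 were higher without overlap (42.9%, against 17.6% of all genes) and 0 lower (against 15.9%). Their median log2 fold change was 0.46, with 5 positive and 2 negative. DESeq2 called *Lum* and *Lox*, and edgeR called 1 higher (0.455% of all genes were called higher). This was *Lum* (lumican), a leucine-rich proteoglycan that binds collagen fibrils, at 16.9 and 38.5 CPM against 279, 125, 171 and 220 (log2 fold change 2.74, SE 0.43, adjusted p = 0.0148). It lost the call without either steady-state library, at adjusted p up to 0.122. *Cthrc1* stood at 142 and 355 against 481, 236, 136 and 163 CPM (log2 fold change -0.01, adjusted p = 0.999), *Postn* at 0 and 27.8 against 32.6, 37.4, 12.2 and 9.36 (adjusted p = 0.828), and *Timp1* at 663 and 3163 against 3589, 2852, 1879 and 1775 (adjusted p = 0.737). Their groups overlapped. *Fn1*, which encodes fibronectin, lay at 13422 and 14772 against 12180, 15235, 12209 and 18058 CPM (log2 fold change 0.03, SE 0.21). The basement membrane list had 1 call of 13, *Lamb2* (laminin β2), at 166 and 257 against 81.8, 71.5, 66.8 and 88.1 CPM (log2 fold change -1.48, adjusted p = 0.00956). Without steady-state replicate 2 its adjusted p was 0.150. Of 9 small leucine-rich proteoglycans tested, *Lum* was the 1 call by edgeR. The median of the list was negative at -0.80, with 3 positive and 6 negative fold changes. DESeq2 called *Lum* and also *Dcn* (decorin), whose log2 fold change was 1.02. Among 7 fibril-associated and other collagens edgeR called none, with 4 at an unadjusted p under 0.05 and *Col6a3* called by DESeq2. Outside the lists, *Vit* (vitrin), *Aebp1* and *Ntn1* also fell, and *Matn2*, *Sned1* and *C1qtnf6* rose.

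Of 32 matrix proteases and inhibitors tested, 1 rose and 2 fell. DESeq2 also called *Ctsk*, *Htra1* and *Adamts5*. *Adamts16*, a metalloproteinase with fibronectin among its substrates, stood at 16.9 and 27.8 CPM against 91.4, 116, 109 and 106 (log2 fold change 2.17, SE 0.28, adjusted p = 0.00622). *Serpine2*, which inhibits thrombin, stood at 352 and 648 against 149, 52.1, 154 and 114 CPM (log2 fold change -2.11, adjusted p = 0.0213). It was lower in each injured library and lost the call without either steady-state library, at adjusted p up to 0.237. *Adamts16* lost it without steady-state replicate 1 alone (adjusted p = 0.0620). Outside the list the secreted protease *Prss23* fell and the lysosomal protease *Ctsh* rose.

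*S100a4* and *Gsn* were among the genes that fell with the smallest p-values. *S100a4*, a calcium-binding protein often used as a fibroblast marker, stood at 907 and 1373 CPM in the steady state and at 262, 203, 173 and 153 after injury. The groups were far apart (log2 fold change -2.53, SE 0.23, adjusted p = 0.00057). It was detected in 65.0 and 60.0% of steady-state lining fibroblasts at 5000 UMIs and in 25.1 to 36.6% after injury. *Gsn* (gelsolin), which severs actin filaments, stood at 3810 and 3075 against 1093, 1028, 1207 and 815 CPM (log2 fold change -1.73, SE 0.18, adjusted p = 0.00209). It was detected in nearly every cell of both groups, 100% in the steady state and 93.1 to 97.8% after injury, so here the level per cell differed more than the share of cells. Both calls held in all 6 fits that left out a library.

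Of 36 contractile and cytoskeletal genes tested, edgeR called none higher and 3 lower (*S100a4*, *Cnn3* and *Tagln*), and DESeq2 also called *Tagln2* and *Tmsb4x*, at log2 fold changes of 0.67 and -0.90. The list had a median log2 fold change of -0.0030. *Cnn3* (calponin 3) stood at 162 and 222 against 67.9, 75.5, 51.9 and 62.2 CPM (log2 fold change -1.59, SE 0.21, adjusted p = 0.00647), and its adjusted p was 0.110 without steady-state replicate 2. *Tagln* (transgelin), a smooth muscle and myofibroblast gene, stood at 166 and 905 against 87.2, 37.4, 33.4 and 105 CPM (log2 fold change -3.08, adjusted p = 0.0249). One cell held 210 of its 423 UMIs in steady-state replicate 2, its groups overlapped without the top cell of each library, and without that replicate its adjusted p was 0.403. *Tagln* is also a mural marker, and the mural sum given above, which includes it, was lower after injury, though *Cspg4* overlapped. *Acta2* stood at 6.77 and 130 against 5.35, 9.17, 7.08 and 22.6 CPM and did not pass (adjusted p = 0.0806). Genes outside the list that fell, picked with their values known, were *Sptbn1*, *Utrn*, *Ablim1*, *Add2*, *Triobp*, *Sept5*, *Pacsin2*, *Gas7*, *Cavin1* and the integrin chain *Itga7*, with *Rhob* and *Podxl2*. *Sgcd*, *Gng12*, *Cib1*, *Kif21a* and the tubulin *Tubb3* rose. *Tubb3* had no UMI in either steady-state library and stood at 19.8, 24.2, 15.7 and 19.3 CPM after injury, at least 5.06-fold higher against a floor of 3 counts over the steady-state group.

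The immediate early genes, which cells switch on within minutes of a stimulus, included 5 of 27 tested that fell and none that rose, and 22 did not pass. DESeq2 called those 5 and *Zfp36* and *Egr2*, both with negative fold changes. Of the same 27, 12 (44.4%, against 15.9% of all genes) were lower without overlap, none was higher and 15 overlapped, with a median log2 fold change of -0.73. *Socs3*, the feedback inhibitor of STAT3 signalling, stood at 910 and 595 CPM in the steady state and at 189, 216, 131 and 101 after injury (log2 fold change -2.23, SE 0.28, adjusted p = 0.00622). The zinc finger factor *Egr1* stood at 1089 and 1232 against 512, 363, 512 and 306 CPM (log2 fold change -1.46, SE 0.22, adjusted p = 0.0109). The AP-1 subunits *Fosb*, *Jun* and *Jund* fell by 1.34, 0.93 and 0.89 on the log2 scale, *Jun* from 558 and 496 to 211, 288, 340 and 268 CPM. All 5 lay below both steady-state libraries in each injured library. *Fos* stood at 2027 and 1790 against 872, 661, 1766 and 958 CPM and did not pass (adjusted p = 0.201). Injured replicate 3 lay highest for *Fos* and *Junb*, at 1766 and 1316 CPM. Except for *Socs3*, which lost the call without steady-state replicate 1 alone (adjusted p = 0.0664), the 5 lost it without either steady-state library, at adjusted p up to 0.256.

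Of the chemokines and cytokines, 14 were tested, and the median log2 fold change was 1.15. By edgeR 3 rose and none fell, where 0.455% of all genes rose and 0.837% fell. Without overlap 6 were higher (42.9%, against 17.6% of all genes) and 3 lower (21.4%, against 15.9%). *Cxcl1*, a neutrophil attractant whose promoter is printed above, stood at 20.3 and 59.9 CPM against 536, 443, 926 and 247 (log2 fold change 3.64, SE 0.59, adjusted p = 0.0166). It was detected in 15.0 and 13.3% of steady-state lining fibroblasts at 5000 UMIs, in 31.8 to 53.5% after injury, and in 19.6% of injured cells with a *Ptprc* UMI. *Mif*, a cytokine with tautomerase activity, stood at 129 and 214 against 435, 324, 407 and 344 CPM (log2 fold change 1.11, adjusted p = 0.0454), and its relative *Ddt* at 50.8 and 49.2 against 132, 110, 110 and 127 (adjusted p = 0.0213). *Ccl9* had no UMI in the steady state and stood at 32.6, 25.3, 18.1 and 20.9 CPM after injury, at least 6.08-fold higher against the floor of 3 counts over the group. All 3 lost the call without either steady-state library, at adjusted p up to 0.144, 0.251 and 0.172. The 41 symbols of this list include 27 with too few UMIs to test, and 3 of those tested had no steady-state UMI. Of 23 interferon response, 17 MHC class I and 9 complement genes tested, edgeR called none, though 5, 5 and 0 had an unadjusted p under 0.05. DESeq2 called 0, 2 (*B2m* and *H2-K1*) and 0.

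Of genes outside that list, *Slpi*, *Lbp* and *Spink2* rose. *Slpi*, an inhibitor of neutrophil elastase made by epithelia and other barrier cells, stood at 0 and 2.14 CPM against 180, 768, 785 and 323 (adjusted p = 0.00919). A single UMI was counted in the steady state and 5015 after injury, a pooled ratio of 427 with a counting interval from 76.7 to 16880. It was detected in 18.8 to 33.0% of injured lining fibroblasts per library at 5000 UMIs, in 0 of 20 and 0 of 30 in the steady state (3 counts of the total allow up to 15.0 and 10.0%), in 2.82% of injured *Thy1*+ *Cd34*+ fibroblasts and in 2 of 46 injured cells with a *Ptprc* UMI. Most injured lining fibroblasts thus had no *Slpi* UMI at this depth. *Lbp*, which binds bacterial lipopolysaccharide, stood at 149 and 237 against 380, 445, 747 and 534 CPM (log2 fold change 1.42, SE 0.30, adjusted p = 0.0479), and *Spink2*, a protease inhibitor, at 16.9 and 12.8 against 63.1, 99.7, 65.7 and 65.0. *Rarres2* (chemerin), an attractant of macrophages and dendritic cells, fell from 856 and 494 to 135, 190, 184 and 275 CPM (log2 fold change -1.77, SE 0.27, adjusted p = 0.0132). Without either steady-state library *Slpi*, *Lbp* and *Spink2* were not called, at adjusted p up to 0.102, 0.266 and 0.180, and *Rarres2* was not called without steady-state replicate 1 (0.154).

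**Figure D4:**
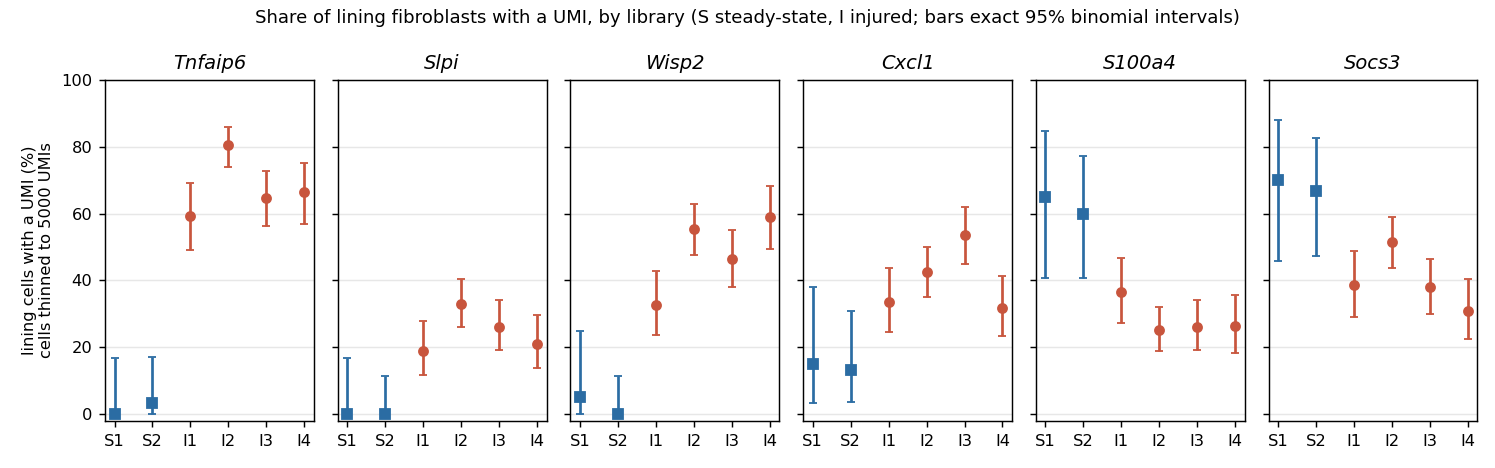
Share of cells, in percent, with at least 1 UMI of each gene after thinning every cell to 5000 UMIs, for 6 genes in the lining fibroblasts of steady-state (S) and injured (I) libraries. Bars are exact 95% binomial intervals. *Tnfaip6* and *Slpi* were detected in at most 3.33% of the steady-state lining fibroblasts of a library and in at least 18.8% of those of each injured library.

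Growth factor lists held at most 3 calls each by edgeR, where 1.29% of all genes tested were called. Of 29 TGF-β genes tested, 3 were higher without overlap (10.3%, against 17.6% of all genes) and 8 lower (27.6%, against 15.9%). An unadjusted p under 0.05 was found for 12. By edgeR 0 of the 29 rose and 3 fell (0.837% of all genes fell), with 19 negative fold changes and a median of -0.35. Among these were the ligand *Tgfb3*, at 44.0 and 51.3 against 16.6, 14.3, 9.83 and 12.1 CPM (log2 fold change -1.87, adjusted p = 0.0187), and *Ltbp4*, which holds latent TGF-β in the matrix, at 118 and 96.2 against 32.6, 14.7, 17.7 and 28.6 (log2 fold change -2.21, adjusted p = 0.0109). *Inhba*, a chain of activin A, stood at 27.1 and 74.9 against 582, 224, 222 and 115 CPM without overlap and did not pass (adjusted p = 0.112). *Igfbp6*, an IGF binding protein, fell from 629 and 962 to 392, 359, 450 and 462 CPM (adjusted p = 0.0441) as the 1 call of 9 in its list. The Notch modifier *Lfng* fell as the 1 call of 5, from 13.5 and 12.8 CPM to at most 1.60. No gene of the BMP (19 tested), Wnt (13) or FGF and PDGF (12) lists was called by edgeR, though 5, 3 and 3 had an unadjusted p under 0.05. DESeq2 called *Bmp6*, *Sfrp4* and none in them. The receptor tyrosine kinase *Ret* rose while the receptor genes *Ntrk3*, *Calcrl* and *Thra* fell, as did *Efnb2*, *Plxdc2* and *Hhip*. All of these calls were lost with at least 1 library left out, *Tgfb3* and *Ltbp4* without either steady-state library at adjusted p up to 0.206 and 0.101, and *Igfbp6* up to 0.340.

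In the list for vascular growth and hypoxia, *Angptl4* rose and *Adm* and *Epas1* fell among 14 tested. *Angptl4*, a secreted lipase inhibitor, stood at 3.38 and 12.8 against 49.7, 56.1, 45.6 and 56.7 CPM (log2 fold change 2.51, adjusted p = 0.0166). *Epas1* (HIF-2α) stood at 67.7 and 32.1 against 6.95, 9.17, 8.26 and 7.71 (log2 fold change -2.54, SE 0.37, adjusted p = 0.0104), and the vasodilator peptide *Adm* at 98.1 and 36.4 against 6.95, 9.90, 8.26 and 12.7 (log2 fold change -2.75, adjusted p = 0.0109). The injured libraries lay close together for all 3. Without steady-state replicate 1 *Epas1* and *Adm* were at adjusted p of 0.113 and 0.148.

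Metabolic lists gave 1 call. *Ldha*, lactate dehydrogenase, was the 1 call among 16 glycolytic genes, at 480 and 701 CPM against 1268, 1128, 1363 and 1048 (log2 fold change 1.02, SE 0.20, adjusted p = 0.0397). Of the 16, 8 were higher (50.0%, against 17.6% of all genes) and 2 lower (12.5%, against 15.9%) without overlap, and the median was 0.48. *Eno1* stood at 277 and 419 against 741, 567, 702 and 537 CPM (adjusted p = 0.0847 by edgeR) and was called by DESeq2. None of 69 nuclear genes of oxidative phosphorylation was called by edgeR, yet 31 of them (44.9% against 17.6% of all genes) were higher in all 4 injured libraries and 1 was lower, with a median of 0.18. By edgeR 13 of the 69 had an unadjusted p under 0.05, and by DESeq2 none was called. *Higd1a*, a mitochondrial factor induced by low oxygen, rose from 365 and 398 to 988, 773, 1038 and 1125 CPM (log2 fold change 1.36, SE 0.20, adjusted p = 0.0104), and *Timm23*, *Prelid1*, *Prdx5* and *Ppa1*, of mitochondria and phosphate metabolism, rose by 0.92, 0.80, 1.12 and 1.79 on the log2 scale. The mitochondrial kinase *Pink1* fell. All these calls were lost without either steady-state library, *Ldha* at adjusted p up to 0.249 and *Higd1a* up to 0.104.

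Synthesis and lipid genes gave few calls as well. *Ssr4*, of the translocon-associated complex at the ER, rose as the 1 call of 45 secretory genes, at 447 and 406 against 755, 713, 730 and 675 CPM (adjusted p = 0.0479), and lost the call in each of the 6 fits without a library. *Srm* (spermidine synthase), *Eef1e1*, *Ubxn4*, *Tmem128* and *Lpgat1* rose. None of 83 ribosomal protein genes was called by edgeR, with 9 at an unadjusted p under 0.05, none called by DESeq2 and a median of 0.042. None of 23 cholesterol and fatty acid genes was called by edgeR either, with 5 at an unadjusted p under 0.05 and *Insig1* called by DESeq2. Of these 23, 20 had a negative fold change, and the median was -0.49. Without overlap none was higher and 7 were lower (30.4%, against 15.9% of all genes). *Insig1*, a sterol sensor partner, stood at 91.4 and 40.6 against 28.9, 24.2, 23.6 and 17.6 CPM (adjusted p = 0.0701).

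Most of the 81 genes that fell belonged to no list. *Cpe* (carboxypeptidase E), a prohormone-processing enzyme, stood at 1394 and 1208 CPM against 348, 338, 457 and 579 (log2 fold change -1.59, SE 0.22, adjusted p = 0.00868). *Ccdc3*, a secreted protein, stood at 914 and 1110 against 214, 443, 313 and 253 CPM (log2 fold change -1.72, adjusted p = 0.0104), and *Rdh5*, a retinol dehydrogenase, at 145 and 126 against 36.4, 17.6, 31.8 and 32.5 (log2 fold change -2.20, adjusted p = 0.00622). *Anxa3*, a membrane-binding annexin, stood at 859 and 460 against 183, 229, 239 and 348 (adjusted p = 0.0378). All 4 were lower in each injured library, and all 4 lost the call without either steady-state library, at adjusted p up to 0.0888, 0.103, 0.0656 and 0.302. The lysosomal genes *Ppt1* and *Gm2a*, the selenium carrier *Selenop*, the thioredoxin inhibitor *Txnip*, the small heat shock protein *Cryab* (1 call of 16 chaperones), the sulfotransferase *Chst15*, the sphingomyelinase *Smpd3* and the proton pump gene *Atp6v0e2* fell as well. Of 25 metallothionein, iron and oxidative stress genes, 18 clock and glucocorticoid targets and 12 lubrication and junction genes, edgeR called none. An unadjusted p under 0.05 was found for 7, 4 and 2, and DESeq2 called *Gstm1* and *Prdx1* in the first list only. Of 42 transcription factors tested *Egr1* was the 1 call, of 11 integrins *Itga7*, and of 17 stromal signals to macrophages and osteoclasts *Spp1* and *Mif* rose and *Thbs1* fell. Outside the lists, falls were seen for the transcription and chromatin factors *Mef2c*, *Gsc*, *Lmo2* and *Bmi1*, the adhesion genes *Adam23*, *Lrrn2*, *Clstn1* and *Cdhr5*, and *Fam124a*, *Gng11*, *Camk2a*, *Ifi203* and *Msmp*. *Lmo2*, a transcriptional cofactor, stood at 112 and 49.2 against 2.67, 1.47, 8.26 and 4.96 CPM. *Nt5dc2*, a gene of the 5′-nucleotidase domain family, rose from 6.77 and 15.0 to 276, 309, 236 and 368 CPM (log2 fold change 4.66, SE 0.36, adjusted p = 0.000163), with the call kept in all 6 fits.

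Cell cycle genes were not called by edgeR, in any of the lists for S phase (18 tested), G2 and M phase (30) and cyclins with their inhibitors (17). An unadjusted p under 0.05 was found for 1, 1 and 4 of them, and DESeq2 called only *Ccnd2*. *Mki67* stood at 0 and 36.4 CPM against 5.88, 22.4, 9.83 and 3.86, and *Top2a* at 0 and 42.8 against 8.02, 17.6, 12.6 and 3.86, so that steady-state replicate 2 lay highest for both. With cells thinned to 5000 UMIs, at least 2 UMIs over 34 G2 and M phase genes were found in 11 of 20 (55.0%) and 22 of 30 (73.3%) steady-state lining fibroblasts and in 76 of 101, 149 of 179, 121 of 142 and 91 of 110 after injury. The means were 64.2% ± 13 (SD, n = 2) and 81.6% ± 4.37 (SD, n = 4), with p = 0.0667 in a two-sided exact permutation test, again the smallest possible. Several of the 34 genes are also expressed outside division, so the share is not one of dividing cells. At least 1 UMI of *Mki67*, *Top2a*, *Ccna2*, *Ccnb1*, *Ccnb2* or *Cdk1*, a narrower set chosen after the data were seen, was found in 0 of 20 and 2 of 30 steady-state cells. After injury it was found in 14 of 101, 23 of 179, 12 of 142 and 7 of 110, where the groups overlapped. The means were 3.33% ± 4.71 (SD, n = 2) and 10.4% ± 3.56 (SD, n = 4), with p = 0.200 in the exact permutation test, which cannot reach 0.05 in this design.

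The same injury contrast was then set against that of *Thy1*+ *Cd34*+ fibroblasts of the same 6 libraries (1186 cells), with the library as a block. The injury response differed between the classes for 162 of 10632 genes (1.52%) by edgeR's quasi-likelihood test, 71 of them (0.668%) with the larger value in the lining and 91 (0.856%) with the smaller, and 21 of the 125 lining calls were among them. *Tnfaip6* stood at 229 and 173 CPM in steady-state *Thy1*+ *Cd34*+ fibroblasts and at 598, 565, 997 and 491 after injury, so its rise there was smaller by 6.74 on the log2 scale (SE 0.79, adjusted p = 0.00132). *Wisp2* stood at 199 and 161 against 207, 307, 385 and 249 CPM in that class, a difference of 4.54 (SE 0.48, adjusted p = 0.000843). For both genes the classes were far apart in the steady state and closer after injury. *Cxcl1* (243 and 193 against 651, 317, 802 and 244 CPM in that class), *Uap1* (347 and 399 against 329, 291, 355 and 255) and *Lbp* (865 and 1045 against 275, 599, 1310 and 856) differed by 2.46, 1.61 and 1.97, at adjusted p of 0.00881, 0.00404 and 0.0125.

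Other genes had the smaller value in the lining. *Cthrc1* stood at 32.7 and 30.9 CPM in steady-state *Thy1*+ *Cd34*+ fibroblasts and at 4629, 3083, 2958 and 1661 after injury, against a log2 fold change of -0.01 in the lining, a difference of -6.58 (SE 0.42, adjusted p = 1.62e-05). *Col1a1* rose in that class from 1866 and 1784 to 9329, 10095, 6972 and 8958 CPM, a difference of -1.61 (adjusted p = 0.0012). *Timp1* rose there from 156 and 164 to 2874, 1558, 1461 and 761 CPM, a difference of -2.52 (adjusted p = 0.0236). *Plod2* rose in both, and by less in the lining (difference -1.26, adjusted p = 0.0138). *S100a4* stood at 1255 and 1217 against 864, 995, 842 and 559 CPM in that class, where it did not pass (adjusted p = 0.130), and the difference between the classes passed (-1.88, SE 0.23, adjusted p = 0.00187). *Cnn3* rose there from 135 and 143 to 245, 208, 194 and 209 CPM and fell in the lining (difference -2.18, adjusted p = 0.00067). *Thbs4*, *Thbs1* and *Tagln* differed by -5.78, -4.68 and -7.75. *Gsn* stood at 15721 and 25168 CPM against 559, 2275, 3316 and 2316 in that class, and its difference of 1.74 did not pass (adjusted p = 0.178). *Col3a1* did not differ by this test either (difference 0.24, adjusted p = 0.807). The 162 calls became 56 and 21 without steady-state replicate 1 and 2.

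**Figure D5:**
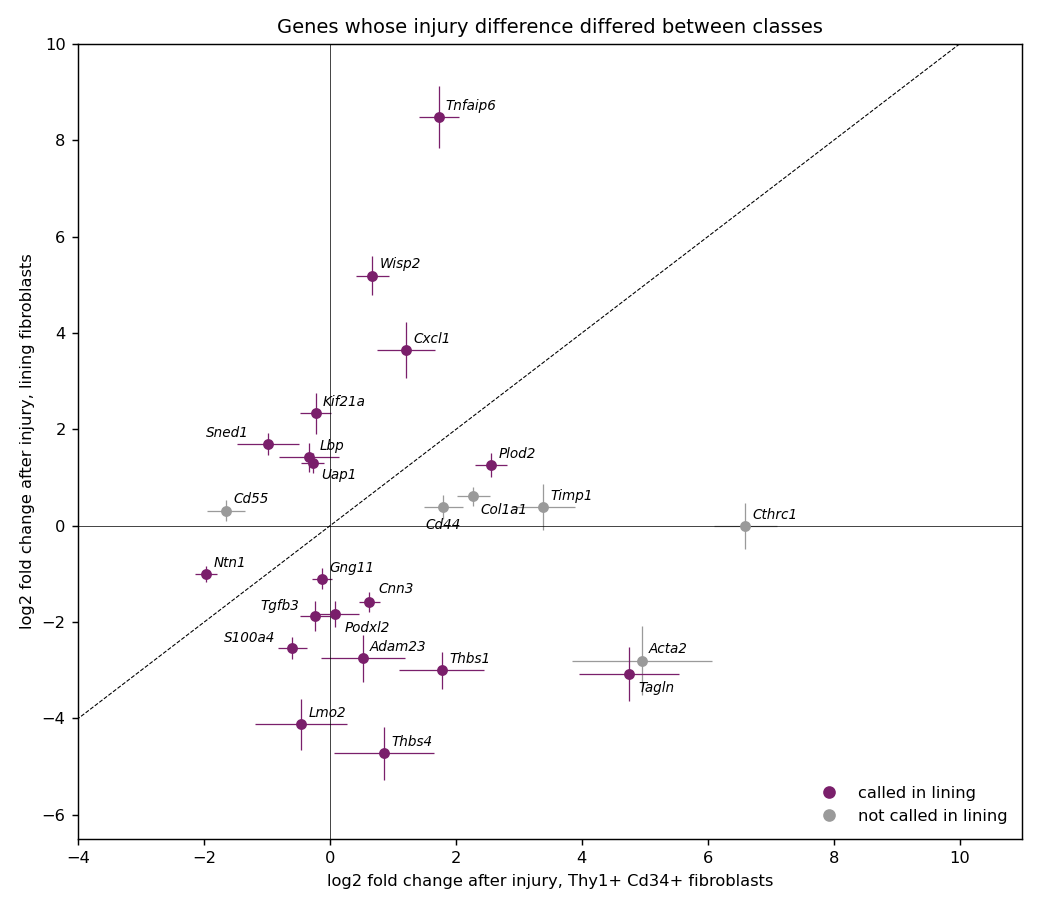
Log2 fold change after injury in *Thy1*+ *Cd34*+ fibroblasts (x axis) against that in lining fibroblasts (y axis) of the same libraries, for called or listed genes whose response differed between the classes. Bars are standard errors, the dashed line is identity, and colour marks the genes called in the lining. *Tnfaip6* and *Wisp2* lie above the line, and *Cthrc1*, *Thbs4* and *Tagln* below it, by the differences given in the text.

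Promoters of called genes were searched on both strands for 6 short motifs in the 250 bases before the RefSeq start, found for 7697 of the 9692 genes in the fit, 31 of the 44 that rose and 56 of the 81 that fell. AP-1 (TGANTCA) was in 5.21% of all promoters, 9.68% of those that rose and 10.7% of those that fell. The CRE (TGACGTCA) was in 3.24, 6.45 and 1.79%, STAT (TTCNNNGAA) in 6.82, 6.45 and 14.3%, the TATA box (TATAAA) in 7.28, 9.68 and 14.3%, NF-κB in 10.6, 6.45 and 7.14% and CArG in 1.35, 0 and 0%. Each share among the called genes rests on at most 8 promoters. Of the 22 immediate early genes with a promoter, 4 (18.2%) held the CRE and 6 (27.3%) NF-κB. CArG, STAT and the TATA box were each in 2 (9.09%), and AP-1 was in none. A match is a run of letters and not a bound site.

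Finally, 8 of the genes that fell have near-identical copies or share sequence with neighbours, so their counts are uncertain: *Rpl37rt*, *Wdr89*, *Usp50*, *Psme2b*, *Sap18b*, *H2-Q2*, *AC133488.1* and *Plac9b*. *Wdr89* stood at 183 and 107 CPM in the steady state, 38.5 in injured replicate 1 and 6.60, 8.65 and 10.5 in replicates 2 to 4, and *Psme2b* at 84.6 and 72.7, 25.1, and 3.67, 4.32 and 4.96. The signalling antagonist *Hhip* had the same order, at 84.6 and 98.4, 31.6, and 8.07, 5.11 and 4.41 CPM. In these the injured library with the older gene list lay between the groups, and the part of the list format was not tested further. *Cox4i2*, at 3.38 and 101 against 6.95, 3.67, 2.36 and 4.96 CPM, is the 1 called gene whose groups overlapped. Of its 48 steady-state UMIs 47 came from 1 cell, and its fold change turned to 0.38 without steady-state replicate 2.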

How the data were processed

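Tom+ cells were profiled with the 10x 5′ kit v2 on a NextSeq 500. The deposited matrices hold UMI counts per gene and barcode, which the authors made with Cell Ranger (3.0.2 in the headers of the libraries that give a version) on GRCm38.p6, with no further normalisation. Doublet removal before deposit is not given in the sources used here, and leaving out the highest 5% of Scrublet scores was an alternative. Barcodes were filtered and gated as stated in the report. Symbols of the form Gm plus digits or containing -ps (27891 of 54534) were left out. They held 1.70 to 4.21% of lining UMIs per library.

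Counts were summed over the lining fibroblasts of each library and fitted with edgeR 4.0.16 (R 4.3.3; filterByExpr, TMM factors, quasi-likelihood test, group as the only term), with Benjamini-Hochberg adjustment at 0.05 over 9692 genes, of which 17 gate and mitochondrial genes received no test in the text. SE is the fitted log2 fold change divided by the square root of the F statistic. The interaction fit added *Thy1*+ *Cd34*+ fibroblasts (at least 1 UMI of each, no *Ptprc* or *Pecam1*, *Prg4* under 20 per 10000) with library as a block. Shares were compared with exact two-sided permutation tests over libraries, and intervals are exact 95% binomial. For detection, cells were thinned to 5000 UMIs and shallower cells left out. DESeq2 1.42.0 and the other alternatives are given at the end. The main fit was tested on simulated data. It called 27.1 and 30.6% of genes with simulated log2 changes of 1 and -1. For log2 changes of 2 and -2 it called 52.0 and 77.6%, and 5.15% of its calls were false. Many real changes of such size can thus go uncalled. In the simulation larger falls were called more readily than rises. Its changes were centred over all libraries, so that a rise also lowered the steady-state means and a fall raised them. How far this gap holds in the real data, and its part in the balance of rises and falls, was not tested.

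Values were given for the 12 called genes per direction with the largest fold change, at least 100 CPM in the higher group and no overlap, for the 8 per direction with the smallest p, for up to 4 called members per list and direction, and for 16 lining and injury genes whether called or not. A few genes that these rules select are counted but not reported here. Called genes outside this rule that carry values, and uncalled list members other than the 16, were picked after their values were seen. The cell gate and the gene lists were chosen with earlier results of these data known. Gene IDs were matched to GENCODE vM21 (54409 matched), and promoter sequences came from RefSeq (GRCm38.p6).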

Additional observations from a re-analysis of the deposited data

Results flagged for a closer look

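The injury response differed between lining and *Thy1*+ *Cd34*+ fibroblasts for 27 of the genes described, by the test of the difference in edgeR. The difference, lining minus *Thy1*+ *Cd34*+ on the log2 scale, was above 0 for *Tnfaip6* (6.74), *Wisp2* (4.54), *Sned1* (2.87), *Kif21a* (2.57), *Cxcl1* (2.46), *Lbp* (1.97), *Cd55* (1.95), *Uap1* (1.61) and *Ntn1* (1.01). *Ntn1* fell in both classes, and *Cd55*, which did not pass in the lining, fell in the other class from 347 and 207 CPM to between 54.0 and 108. The difference was below 0 for the contractile genes *Tagln* (-7.75), *Acta2* (-7.30) and *Cnn3* (-2.18), and for the matrix genes *Cthrc1* (-6.58), *Thbs4* (-5.78), *Thbs1* (-4.68), *Timp1* (-2.52), *Col1a1* (-1.61) and *Plod2* (-1.26). It was below 0 as well for *Cox4i2* (-4.95), *Lmo2* (-3.59), *Adam23* (-3.31), *S100a4* (-1.88), *Podxl2* (-1.88), *Tgfb3* (-1.55), *Cd44* (-1.37) and *Gng11* (-0.98). Of the 48 steady-state lining UMIs of *Cox4i2*, 47 came from 1 cell, and without the top cell of each library both steady-state libraries were at 0. The fitted difference of *Top2a* (-9.24) has no UMI behind it in steady-state *Thy1*+ *Cd34*+ fibroblasts and depends on the prior count. Outside the 27, further division genes passed with the smaller value in the lining. Examples, picked with their values known, were *Spc24* (-6.44), *Ccna2* (-6.27), *Cdk1* (-6.83) and *Pclaf* (-7.37). Their log2 fold changes were 5.41 to 7.08 in *Thy1*+ *Cd34*+ fibroblasts and -0.99 to -0.31 in the lining. Lining values for such genes rest on few steady-state cells and do not show a fall. With cells thinned, a UMI of *Mki67*, *Top2a*, *Ccna2*, *Ccnb1*, *Ccnb2* or *Cdk1* was found in 0 of 20 and 2 of 30 steady-state lining fibroblasts. A single cell held 16 of the 17 *Mki67* UMIs of steady-state replicate 2. Without that library *Mki67* and *Top2a* were both at 7.35 in the lining, with no steady-state UMI left.

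In 5 genes 1 injured library stood apart from the other injured ones, a criterion that chance meets in about 1 of 20 groups. Injured replicate 1 was the high one for *H2-Q2* (73.3 CPM), *Wdr89* (38.5), *Hhip* (31.6) and *Psme2b* (25.1), and injured replicate 2 for *Spink2* (99.7). In *Thy1*+ *Cd34*+ fibroblasts *H2-Q2* had the same order, at 125 and 114 CPM in the steady state, 26.1 in injured replicate 1 and 6.33 to 8.05 in the others.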

How the results depend on the processing

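The 125 calls became 225 with DESeq2 (72 higher and 153 lower, 113 of them shared), 381 with no filter, 214 with the left-out symbols kept, 277 with the older gene list format only, 76 with cells thinned to 5000 UMIs and 26 with a term for the format. With cells of 2 or more G2 and M phase UMIs left out, 4 of 400 testable genes were called. That setting took out most cells, among them 17 of 20 and 29 of 31 in the steady state. Leaving out 1 library gave 23 to 194 calls (23 without either steady-state replicate, and 194, 61, 73 and 138 without injured replicates 1 to 4). The remaining settings gave 103 to 177. The share of higher calls, 35.2%, was 24.4% without composition factors, 25.0% without mitochondrial and ribosomal genes in the library size and 48.7% after thinning, and 3 of 23 calls were higher without steady-state replicate 1. The 162 differences between the classes became 557 with no filter, 606 with the older format only, 61 after thinning and 21 to 277 with 1 library left out. The gate share difference stayed between 11.9 and 16.8 points in all settings. The cycle share difference of 17.4 points was 8.40 without thinning, 8.27 to 26.6 with 1 library left out and 3.88 for at least 2 UMIs of the 6-gene set. Where a cause is not stated by the setting itself, it was not tested.

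Replicate numbers were not used to pair the samples in the main fit. The deviations of same-numbered libraries from their group means had correlations of -0.091 and 0.077. Only 2 numbers are shared, and the deviations of 2 steady-state libraries mirror each other. Whether the numbers pair the samples thus cannot be told from these correlations. With the replicate block 103 genes were called (49 higher and 54 lower), 64 of them among the 125.

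Over 137 named genes, 2732 alternative values kept their direction and side of the threshold, 748 were no longer past it, 28 passed it newly and 39 changed sign. The log2 fold change of *Cthrc1*, -0.01 and not called, was 0.024 with DESeq2, 0.052 with no filter, 0.034 with the left-out symbols, 0.48 with the replicate block, 0.92 with the format term, 0.92 with the older format only (1 injured library, called there at an adjusted p of 0.0137), 0.042 at *Prg4* of at least 10 per 10000, 0.61 and 1.28 at 1 and 4 UMIs of *Clic5* and *Tspan15*, 0.16 with 1 *Thy1* UMI allowed, 1.10 thinned, 0.54 without high Scrublet scores and -0.51 to 0.86 with 1 library left out. *Fn1*, 0.03 and not called, was -0.034 without composition factors and without mitochondrial and ribosomal genes, -0.048 with the replicate block, -0.21 with the format term and with the older format, -0.0050 at *Prg4* of at least 50, -0.019 with 1 *Thy1* UMI and -0.10 to 0.12 with 1 library left out. With cells of 2 or more G2 and M phase UMIs left out, *Fn1* was at -0.87, *Has1* at -0.41 and *Htra4* at -0.58. In the same setting *Prss23* was at 0.68, *Uap1* at -0.027 and *Ugp2* at -0.035. It took out 85.0 to 99.3% of the lining fibroblasts of each library, so these values rest on few cells. *Mki67* was at 2.58 and *Top2a* at 6.84 with at least 4 UMIs of *Clic5* and *Tspan15*. With 1 library left out, *Acta2* ranged from -3.58 to 0.69, *Cox4i2* from -4.50 to 0.38, *Mki67* from -1.70 to 7.35, *Top2a* from -1.94 to 7.35, *Postn* from -0.25 to 8.42 and *Timp1* from -0.31 to 1.95.

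Depth limits the steady state most, with 51 lining fibroblasts in 2 libraries. Of the 125 genes 15 had over 50% of their UMIs in 1 cell of a steady-state library. Without the top cell of each library all 44 that rose and 78 of the 81 that fell still did not overlap.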
